A study of Mus musculus with 29 samples.

Results

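The genes described are 10 with known roles in the survival or death of oocytes and other cells: Bcl2, Bcl2l1, Bcl2l10, Mcl1, Bax, Bak1, Bcl2l11, Bbc3, Pmaip1 and Trp63. They were chosen by name for their roles, with earlier results of these data known. All 10 were found among the 51912 gene IDs of the deposited count table. Each was followed by bulk RNA sequencing of whole dissociated ovaries from wild-type (Cdkn1b +/+) mice and from mice homozygous for a null allele of Cdkn1b (Cdkn1b -/-, called Cdkn1b-null), the gene of the cell-cycle inhibitor p27Kip1. Fetal ovaries were taken on days 13.5 and 18.5 of embryonic life (E13.5 and E18.5). Ovaries after birth were taken on day 8 (PND8) and from adults of 12 weeks (12wk). There were 4 wild-type libraries at each age, 4 Cdkn1b-null libraries at E18.5 and 3 (replicates 1, 3 and 4) at each of the other ages, 29 libraries in 8 groups. The labels give neither the strain, nor the extent of the deletion, nor whether animals were pooled or littermates, so p-values measure only the spread between these libraries, which may be technical.

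Proteins of the Bcl2 family meet at the outer membrane of the mitochondrion. Bax and Bak1 are the effectors that open pores in it and release cytochrome c. Bcl2, Bcl2l1 (Bcl-xL), Mcl1 and Bcl2l10 (Diva, also called Boo) are grouped here as the anti-death members, although the activity of mouse Bcl2l10 is debated. The BH3-only proteins Bcl2l11 (Bim), Bbc3 (Puma) and Pmaip1 (Noxa) bind the anti-death members and so favour pore formation. Trp63 encodes p63, whose TAp63α form guards the genome of resting oocytes and, after DNA damage, induces Bbc3 and Pmaip1. In mice many germ cells die between meiotic prophase and the days after birth, and the survivors form the pool of primordial follicles.

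The 250 bases before a transcript start are shown for 4 members, in the strand of the gene, because these are the members whose levels exchanged between E18.5 and PND8 or differed between genotypes. The sequences are RefSeq's on GRCm38.p6. Capitals mark a match to the p53-family half-site consensus on either strand.
Bcl2, chr1:106714291-106714540: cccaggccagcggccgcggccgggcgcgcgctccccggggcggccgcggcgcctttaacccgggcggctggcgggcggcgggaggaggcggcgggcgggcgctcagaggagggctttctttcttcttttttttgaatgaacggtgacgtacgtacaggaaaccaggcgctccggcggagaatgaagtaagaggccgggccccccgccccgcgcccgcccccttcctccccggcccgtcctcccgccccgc
Bcl2l1, chr2:152831729-152831978: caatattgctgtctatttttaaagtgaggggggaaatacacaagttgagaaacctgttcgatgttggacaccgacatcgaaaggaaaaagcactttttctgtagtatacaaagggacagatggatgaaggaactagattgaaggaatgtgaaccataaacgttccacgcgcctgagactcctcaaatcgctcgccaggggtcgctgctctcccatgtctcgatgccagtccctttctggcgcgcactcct
Mcl1, chr3:95658471-95658720: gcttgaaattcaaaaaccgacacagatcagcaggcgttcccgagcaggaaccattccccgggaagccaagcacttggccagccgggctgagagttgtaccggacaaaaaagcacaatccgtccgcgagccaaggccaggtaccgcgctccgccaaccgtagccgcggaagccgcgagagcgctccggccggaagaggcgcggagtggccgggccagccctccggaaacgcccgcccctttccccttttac
Bax, chr7:45466899-45467148: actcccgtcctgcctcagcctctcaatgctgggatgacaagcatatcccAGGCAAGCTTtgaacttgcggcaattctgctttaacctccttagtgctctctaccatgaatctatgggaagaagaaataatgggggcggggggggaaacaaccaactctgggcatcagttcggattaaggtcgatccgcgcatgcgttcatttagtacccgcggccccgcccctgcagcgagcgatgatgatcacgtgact
The Bax window held 1 match, which starts at position -201 from the transcript start, and 7.13% of all 32851 RefSeq windows of that length hold one. The other 3 windows held no match, which says only that these letters are not in them. A second search used the E2F sites TTTGGCGC, TTTCCCGC, TTTGCCGC and TTTCGCGC on both strands, which 1.86% of all windows hold, and it found none in these 4. Bcl2l1 has 2 other windows, both in its annotated exons and not printed, and that at chr2:152830718-152830967 holds 1 such match, which starts at position -145. No motif matches overlapped. In GENCODE M21 none of the 4 windows overlaps an exon, and the Bax window lies in an intron of the annotated gene Gm45808. Windows were found for 7 of the 10 members, 12 windows in all, and that of Bax alone held a half-site match. Those of Bbc3, a direct target of p53-family proteins, held none. The window of Bak1 lies in annotated exons of Bak1 and Ggnbp1 and is not printed.

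Levels are counts-per-million values (CPM), the estimated counts divided by a library size scaled with TMM over all 29 libraries. A gene is described as called where its adjusted p from edgeR's quasi-likelihood test, corrected by Benjamini-Hochberg over all genes tested, was under 0.05. Library totals ran from 14095601 to 48213177 counts, and the level that 3 counts of the total give, taken as the floor of detection, was 0.0622 to 0.213 CPM. Cdkn1b itself was lower in every Cdkn1b-null library than in every wild-type library at each age, at 22.9 ± 2.99 (SD, n = 4) against 4.50 ± 0.231 CPM (n = 3) at E13.5 and 103 ± 13.1 (n = 4) against 12.5 ± 2.67 CPM (n = 4) at E18.5. After birth it was at 148 ± 17.5 (n = 4) against 71.5 ± 7.57 CPM (n = 3) at PND8 and 185.05 ± 70.8 (n = 4) against 51.3 ± 7.99 CPM (n = 3) at 12wk. The log2 differences were -2.38, -3.06, -1.06 and -1.85 in order of age, the smallest at PND8. It was called at E13.5, E18.5 and PND8, with adjusted p of 0.0114, 1.12e-05 and 0.0216, but not at 12wk, where edgeR gave an adjusted p of 0.211. As for the labelled tissue, 10 markers of the granulosa lineage summed to 3118 to 5968 CPM after birth outside 1 Cdkn1b-null library at 12wk (2568 CPM), and none of 16 oocyte markers was at or under the floor in every library at PND8. One library stood apart: in wild-type replicate 3 at E13.5 the 6 red cell genes summed to 137670 CPM, against 4452 to 8104 CPM in the other 3.

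Counts that are not whole, which RSEM gives where reads fit several genes, were found for Bak1 in 100% of libraries, for Bax in 93.1% and for Bcl2 in 44.8%. Bak1 shares 614 of 2407 exon bases with Ggnbp1 on the opposite strand, Bax shares 192 of 1576 with Gm45808 on its own strand, and Bcl2 shares 558 of 9157 with D630008O14Rik on the opposite strand, so these 3 are less certain. The group means of the overlapping genes were at most 8.88 CPM for Ggnbp1, 1.40 CPM for Gm45808 and 0.457 CPM for D630008O14Rik. The genes lie, on GRCm38 in GENCODE M21, on chromosomes 1 (Bcl2), 2 (Bcl2l1 and Bcl2l11), 3 (Mcl1), 7 (Bax and Bbc3), 9 (Bcl2l10), 16 (Trp63), 17 (Bak1) and 18 (Pmaip1).

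In the wild-type ovary the family turned over between E18.5 and PND8. Mcl1, Bak1, Bcl2l11 and Bcl2l10 rose, while Bcl2l1, Bax, Pmaip1 and Bbc3 fell, so that 8 of 10 members were called. Of all 17421 genes tested in that step 74.6% were called, so the share is near the background, and groups did not overlap for 70.6%. Library size also divided almost fully at birth. Over both genotypes, 3 counts were 0.121 to 0.213 CPM in fetal libraries and 0.0622 to 0.125 CPM in those after birth. The part of library size, or of a batch along that divide, in the steps across birth was not tested. Before birth, from E13.5 to E18.5, 0 of 9 members tested were called by edgeR, against 34% of all genes; 1 had an unadjusted p under 0.05, against 44.6% of all genes, and DESeq2 called 0. From PND8 to 12wk 4 of 10 were called, against 30.5% of all genes.

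**Figure D1:**
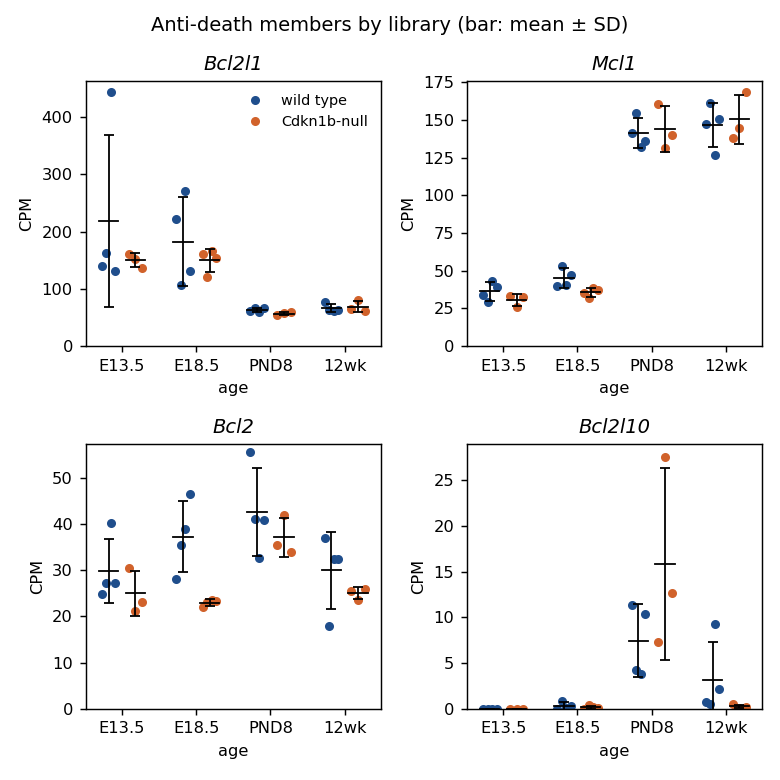
Level in CPM of the 4 anti-death members in every library, by age and genotype. Points are libraries, bars the mean ± SD of 4 wild-type or 3 to 4 Cdkn1b-null libraries, and each panel has its own linear axis from 0. Bcl2l1 is above 100 CPM before birth and under 80 CPM after it, Mcl1 does the reverse, and Bcl2l10 has its highest means at PND8.

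Bcl2l1 and Mcl1 exchanged places. Bcl2l1 stood at 140, 162, 443 and 131 CPM in wild-type replicates 1 to 4 at E13.5 and at 222, 107, 271 and 130 CPM at E18.5. At PND8 it stood at 60.7, 65.9, 60.0 and 66.3 CPM, below every library before birth. The step fell by 1.60 ± 0.253 (SE) on the log2 scale (edgeR adjusted p = 0.000195), and the change was -1.77 to -1.34 when each library was left out in turn. Its highest values came with high red cell genes, and erythroid cells are known to depend on Bcl2l1 for survival. At E13.5 replicate 3, with 443 CPM, had the red cell sum of 137670 CPM, and at E18.5 replicates 1 and 3 had sums of 24523 and 32938 CPM, against 6843 and 1583 CPM in replicates 2 and 4. In those last replicates Bcl2l1 was still at 107 and 130 CPM, above all 8 wild-type libraries after birth, while the red cell sum after birth was 7.82 to 194 CPM. How far red cells set the fall was not tested. At 12wk Bcl2l1 stood at 77.7, 63.2, 61.0 and 63.4 CPM and did not differ from PND8 beyond its spread (edgeR adjusted p = 0.289).

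Mcl1, a short-lived protein that many cells need to survive, stood at 33.6, 29.2, 42.9 and 39.5 CPM at E13.5 and at 39.8, 53.3, 40.5 and 46.8 CPM at E18.5. At PND8 it was at 142, 155, 132 and 136 CPM, and at 12wk at 147, 161, 127 and 151 CPM. Every library after birth was above every library before it. The rise from E18.5 to PND8 was 1.56 ± 0.124 on the log2 scale (edgeR adjusted p = 1.57e-06), and the steps on either side of it were not called (adjusted p = 0.170 and 0.327).

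Bcl2, the founder of the family, had no step between neighbouring ages called in wild type. It stood at 24.9, 27.2, 40.2 and 27.2 CPM at E13.5, at 28.0, 35.4, 39.0 and 46.5 CPM at E18.5 and at 55.4, 41.0, 32.7 and 40.9 CPM at PND8. At 12wk it was at 37.0, 17.9, 32.4 and 32.4 CPM. The ages overlapped throughout, and no neighbours in the order of its levels, from E13.5 and 12wk up to PND8, were called (edgeR adjusted p = 0.187 to 0.874).

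Bcl2l10, a member found mainly in the oocyte among ovarian cells, had 0 counts in all 7 libraries of both genotypes at E13.5, where 3 counts are 0.121 to 0.213 CPM. At E18.5 the wild-type libraries stood at 0, 0.870, 0.0482 and 0.251 CPM and the Cdkn1b-null ones at 0, 0.418, 0.142 and 0.0472 CPM, mostly near the floor. At PND8 wild type was at 11.4, 4.22, 3.78 and 10.4 CPM, a rise of 4.58 ± 0.820 on the log2 scale from E18.5 (edgeR adjusted p = 0.000477). At 12wk it was at 0.775, 0.545, 9.31 and 2.14 CPM, and the step from PND8, -1.16 ± 0.842, was not called (edgeR adjusted p = 0.335).

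On a scale that allows for gene length, CPM per kilobase of all annotated exons of a gene, the make-up of the anti-death group differed before and after birth. The lengths of the transcripts made are not known here, and how far the shares depend on the length used was not tested. Bcl2l1 made up 74.4 ± 8.05% (SD, n = 4) of the summed CPM per kilobase of the 4 members in wild type at E13.5, 67.2 ± 12.3% at E18.5 and 21.0 ± 1.50% at PND8. Mcl1 went from 19.7 ± 6.78% through 24.7 ± 9.34% to 62.9 ± 4.27%, and stood at 67.8 ± 5.94% at 12wk. The sum itself was 61.6 ± 34.7 and 57.3 ± 14.6 CPM per kilobase at the fetal ages, and 65.8 ± 5.12 and 63.2 ± 1.27 at PND8 and 12wk. Bcl2l10 reached 9.10 ± 4.50% at PND8, above the 7.00 ± 1.12% of Bcl2 by less than its spread. These shares describe messenger RNA in the whole ovary. In such bulk samples fewer cells of a type and less RNA per cell cannot be told apart.

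**Figure D2:**
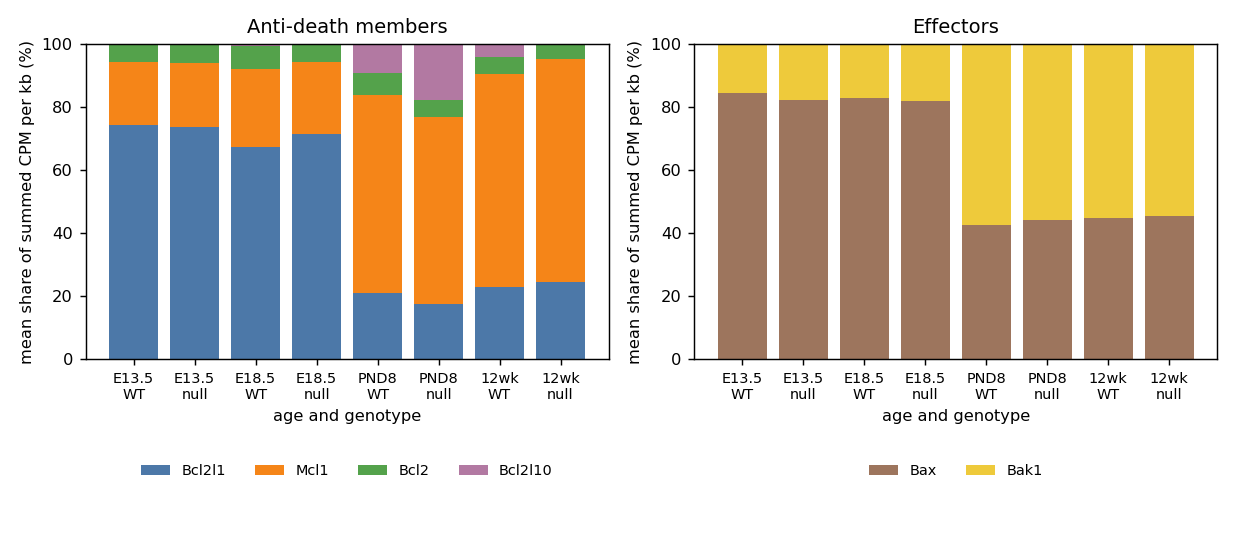
Mean share, in percent, of each member in the summed CPM per kilobase of the anti-death members (left) and of the effectors Bax and Bak1 (right), for the 8 groups of 3 or 4 libraries. In wild type Bcl2l1 goes from 74.4% at E13.5 to 21.0% at PND8 and Bax from 84.5% to 42.7%, and in Cdkn1b-null ovaries Bcl2l1 goes from 73.7% to 17.4% and Bax from 82.3% to 44.2%.

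The effectors moved in opposite directions. Bax stood at 107, 95.7, 132 and 104 CPM in wild-type replicates 1 to 4 at E13.5 and at 84.2, 113, 91.4 and 79.2 CPM at E18.5. It was at 36.1, 44.8, 37.5 and 38.7 CPM at PND8 and at 44.9, 60.9, 35.4 and 43.5 CPM at 12wk. Every library before birth was above every library after it, and the step from E18.5 to PND8 fell by 1.31 ± 0.134 on the log2 scale (edgeR adjusted p = 8.76e-06).

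Bak1 did the reverse, at 32.1, 38.6, 30.3 and 21.3 CPM at E13.5 and 31.4, 22.9, 31.1 and 28.6 CPM at E18.5. It then stood at 73.8, 85.9, 87.4 and 74.9 CPM at PND8 and at 76.2, 111, 83.0 and 76.3 CPM at 12wk, a rise from E18.5 to PND8 of 1.42 ± 0.119 (edgeR adjusted p = 2.32e-06). The groups on either side of birth did not overlap. Bax made up 84.5 ± 4.05% of the summed CPM per kilobase of the pair at E13.5 and 82.8 ± 3.71% at E18.5. After birth its share was 42.7 ± 2.20% (PND8) and 44.7 ± 3.60% (12wk). These steps of Bcl2l1, Mcl1, Bcl2l10, Bcl2l11, Bax, Bak1 and Pmaip1 from E18.5 to PND8 kept their calls without each library in turn, in both genotypes.

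**Figure D3:**
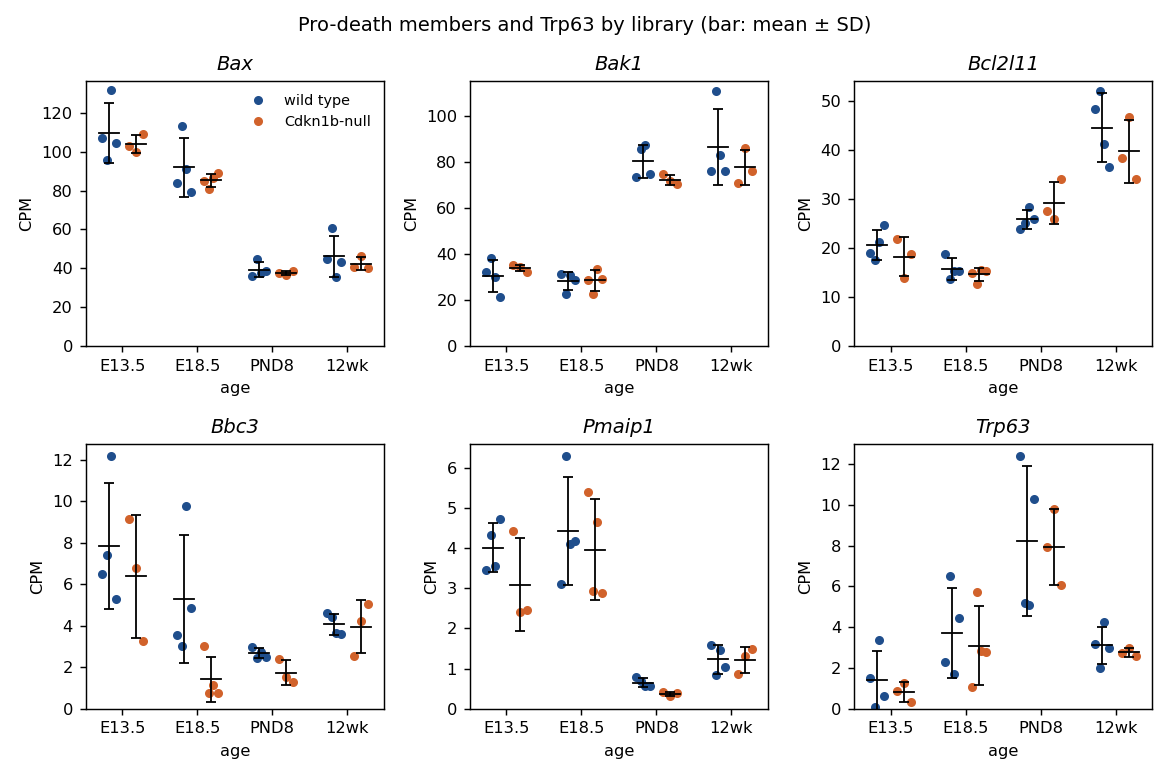
Level in CPM of the effectors Bax and Bak1, the BH3-only members Bcl2l11, Bbc3 and Pmaip1, and Trp63 in every library, by age and genotype. Points are libraries and bars the mean ± SD, each panel with its own linear axis from 0. Bax and Pmaip1 are low after birth, Bak1 and Bcl2l11 are high, Bbc3 is lower in Cdkn1b-null libraries at E18.5 (not called), and the mean of Trp63 is highest at PND8.

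The BH3-only members did not move together. Bcl2l11, a broad binder of the anti-death members, stood at 19.0, 17.6, 21.2 and 24.6 CPM at E13.5 and 18.8, 13.7, 15.3 and 15.3 CPM at E18.5. After birth it stood at 24.0, 25.2, 28.5 and 25.9 CPM at PND8 and 48.5, 52.2, 41.4 and 36.6 CPM at 12wk. It rose from E18.5 to PND8 and again from PND8 to 12wk, by 0.64 ± 0.123 and then by 0.86 ± 0.115 on the log2 scale (edgeR adjusted p = 0.000815 and 0.000959), with no overlap between the groups, which held for 34.3% of all genes from PND8 to 12wk. Mcl1 and Bak1, which rose in the first step, had differences of 0.13 ± 0.0918 and 0.18 ± 0.123 in the second and were not called there (edgeR adjusted p = 0.327 and 0.307).

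Pmaip1, which mainly binds Mcl1, was scarce. It stood at 3.46, 4.32, 3.55 and 4.72 CPM at E13.5, 3.10, 6.30, 4.10 and 4.18 CPM at E18.5, 0.781, 0.704, 0.566 and 0.563 CPM at PND8 and 1.58, 0.834, 1.46 and 1.04 CPM at 12wk. It fell by 2.84 ± 0.310 from E18.5 to PND8 (edgeR adjusted p = 1.43e-05). The rise of 0.98 ± 0.306 from PND8 to 12wk (adjusted p = 0.0379) was called in only 1 of 8 fits that left out a library, the exception being the one without wild-type replicate 2 at 12wk.

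Bbc3, a direct target of p53-family proteins, stood at 6.51, 7.40, 12.2 and 5.29 CPM at E13.5, 3.56, 3.02, 9.79 and 4.85 CPM at E18.5, 2.99, 2.46, 2.75 and 2.52 CPM at PND8 and 4.59, 4.43, 3.64 and 3.62 CPM at 12wk. It fell by 1.06 ± 0.357 from E18.5 to PND8 (edgeR adjusted p = 0.0196) and rose by 0.68 ± 0.186 from PND8 to 12wk (adjusted p = 0.0231). Both calls were frail: the first was lost without replicate 3 at E18.5 or replicate 2 or 4 at PND8, and the second without replicate 1 at 12wk or replicate 2, 3 or 4 at PND8.

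Trp63 was scarce in the fetal ovary and highest at PND8. It stood at 1.50, 0.112, 3.39 and 0.617 CPM at E13.5 in wild type, 2.27, 6.50, 1.69 and 4.43 CPM at E18.5, 12.4, 5.20, 5.07 and 10.3 CPM at PND8 and 3.16, 2.02, 4.25 and 2.99 CPM at 12wk. The rise from E13.5 to PND8 was 2.501 ± 0.762 on the log2 scale (edgeR adjusted p = 0.0141), where 74% of all genes were called, while the smaller steps before PND8 were not called (1.41 ± 0.778, adjusted p = 0.189, and 1.06 ± 0.460, adjusted p = 0.0584). Without wild-type replicate 3 at E13.5, the library rich in red cell genes, the step from E13.5 to E18.5 was 2.29 and was called. From PND8 to 12wk Trp63 fell by 1.34 ± 0.359 (adjusted p = 0.0213), a call that was lost without replicate 1 or 4 at either age. Gene-level counts do not separate TAp63 from the ΔN form of epithelia. Of 6 stratified epithelium markers, Krt6a and Dsg3 were at or under the floor in every group. The sum of all 6 was 6.51 to 31.5 CPM at E13.5 and 0.465 to 8.97 CPM at E18.5. It was at most 1.32 CPM at PND8, where Trp63 was highest, and at most 0.615 CPM at 12wk. In wild-type replicates 1 to 4 at E13.5 the sum was 6.51, 10.8, 29.4 and 9.92 CPM, highest in replicate 3, as was Trp63. Cdkn1b-null libraries at E13.5 had sums of 12.0, 31.5 and 7.71 CPM at 0.859, 1.28 and 0.319 CPM of Trp63. At E18.5 the highest sum, 8.97 CPM, was in the Cdkn1b-null library with the least Trp63, 1.08 CPM. The part of epithelium in the Trp63 levels was not tested.

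The order of the mean levels over the 4 ages summarises these courses in wild type. Bcl2l1 and Bax were both lowest at PND8, then 12wk, E18.5 and E13.5, and only the gap between 12wk and E18.5 was called between neighbours (edgeR adjusted p = 0.000475 and 0.000434, with 72.5% of all genes called). Mcl1 ran from E13.5 through E18.5 and PND8 to 12wk, with only the gap between E18.5 and PND8 called. Bak1 and Bcl2l11 ran from E18.5 through E13.5 and PND8 to 12wk, with the gap between E13.5 and PND8 called for Bak1 (adjusted p = 0.0001) and that between PND8 and 12wk for Bcl2l11. Pmaip1 was lowest at PND8, then 12wk, E13.5 and E18.5, with the gap between 12wk and E13.5 called (adjusted p = 0.000676, with 73% of all genes called) and that between E13.5 and E18.5 not. For Trp63, from E13.5 through 12wk and E18.5 to PND8, no neighbours were called (adjusted p = 0.0584 to 0.532).

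Among wild-type libraries at PND8, those with more Trp63 and Bcl2l10 also had higher oocyte markers. Replicates 1 and 4 had 12.4 and 10.3 CPM of Trp63 and 11.4 and 10.4 CPM of Bcl2l10, and their 16 oocyte markers summed to 977 and 1058 CPM. Replicates 2 and 3 had 5.20 and 5.07 CPM of Trp63, 4.22 and 3.78 CPM of Bcl2l10 and sums of 289 and 321 CPM. Cdkn1b-null replicates 1, 3 and 4 at PND8 had 7.93, 9.77 and 6.07 CPM of Trp63 and 7.28, 27.6 and 12.7 CPM of Bcl2l10, at sums of 713, 1668 and 874 CPM, so Bcl2l10 had the order of the sums and Trp63 did not. At 12wk the Bcl2l10 level of 9.31 CPM was in replicate 3, where the oocyte markers other than Kit summed to 141 CPM, against 10.8 to 45.4 CPM in the other 3. The Cdkn1b-null libraries at 12wk had Bcl2l10 at 0.477, 0.0802 and 0.243 CPM, only 11, 3 and 7 counts. That order was the reverse of the sums of those markers, 6.24, 10.2 and 9.25 CPM, but it rests on few counts. Kit was left out of these sums after its values were seen, since other ovarian cells express it.

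**Figure D4:**
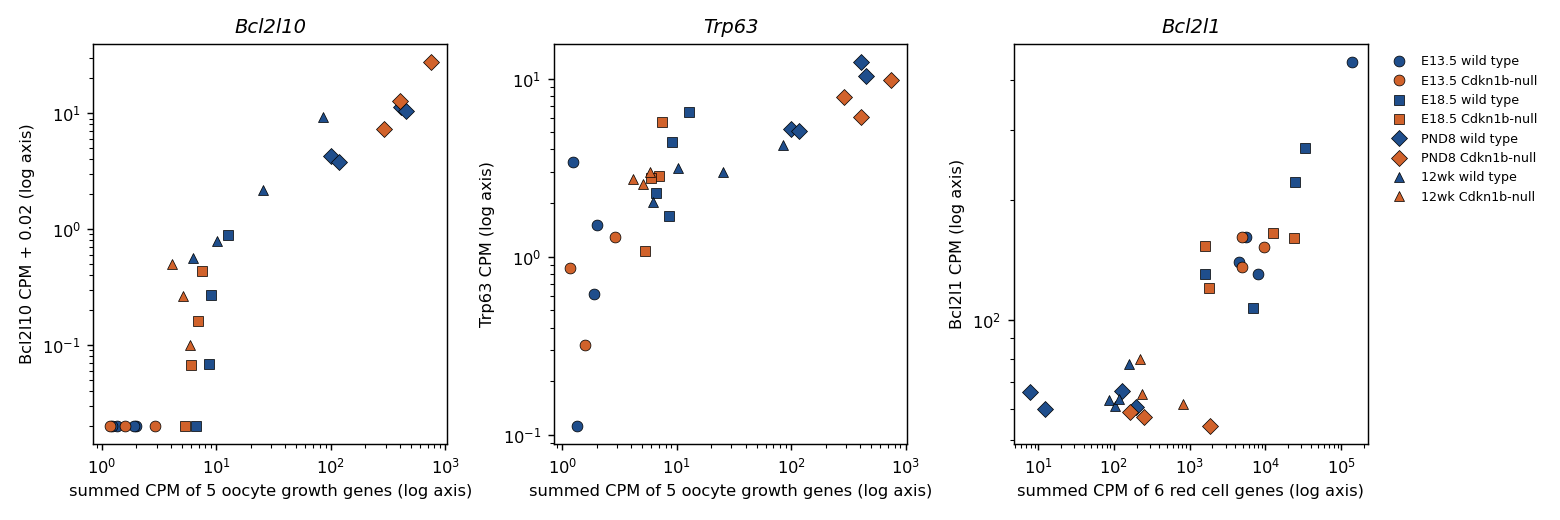
Level in each of the 29 libraries of Bcl2l10 (left, with 0.02 CPM added so that 0 can be drawn) and Trp63 (middle) against the summed CPM of 5 oocyte growth genes (Zp1, Zp2, Zp3, Gdf9 and Bmp15, a set chosen after values were seen), and of Bcl2l1 (right) against the summed CPM of 6 red cell genes. All axes are log axes. The highest points of the left and middle panels are PND8 libraries, at 27.6 CPM of Bcl2l10 and 12.4 CPM of Trp63, and the E13.5 library with 137670 CPM of red cell genes has the highest Bcl2l1 level, 443 CPM.

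Over all 29 libraries the 5 genes whose log2 CPM went most closely with Bcl2l10, of 13945 compared, were C86187 (Pearson's r = 0.973), Fbxw24 (0.969), Btg4 (0.967), Oas1h (0.965) and Zp2 (0.964), the last a protein of the zona pellucida that surrounds the oocyte. For Trp63 they were Dync2h1 (0.866), Zc3h13 (0.855), Ralgps1 (0.854), Col24a1 (0.854) and Cpeb3 (0.845). Of the oocyte genes Ddx4, Dazl, Figla, Nobox, Zp3 and Gdf9, Nobox came closest to Trp63 (0.790), followed by Gdf9 (0.778). Ddx4, which marks germ cells from before meiosis, was negative with both Trp63 (-0.379) and Bcl2l10 (-0.475). Among pairs of members, Mcl1 and Bak1 had the highest r (0.923) and Mcl1 and Bax the lowest (-0.919). These correlations describe libraries that share ages, genotypes and cell make-up, and no p is given for them.

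In Cdkn1b-null ovaries too Mcl1 and Bak1 rose and Bcl2l1 and Bax fell around birth. From E18.5 to PND8 the range over libraries went from 31.9 to 38.3 CPM up to 131 to 161 CPM for Mcl1, and from 22.6 to 33.7 CPM up to 70.7 to 74.9 CPM for Bak1. It went from 120 to 165 CPM down to 54.3 to 58.9 CPM for Bcl2l1, and from 80.9 to 89.1 CPM down to 36.8 to 38.6 CPM for Bax, so that no range of these 4 overlapped across the step, as was so for 77.5% of all genes. From E18.5 to PND8 9 of 10 members were called, against 77.4% of all genes. Mcl1 rose by 1.95 ± 0.0946, Bak1 by 1.28 ± 0.118, Bcl2l11 by 0.93 ± 0.129, Bcl2l10 by 6.70 ± 0.791, Bcl2 by 0.63 ± 0.101 and Trp63 by 1.29 ± 0.451, while Bcl2l1 fell by 1.46 ± 0.113, Bax by 1.25 ± 0.0739 and Pmaip1 by 3.45 ± 0.361. All are on the log2 scale, and the largest edgeR adjusted p was 0.0250, for Trp63, whose call was lost without replicate 1 or 3 at PND8 or replicate 3 or 4 at E18.5. Bbc3, at 0.23 ± 0.505, was not called (adjusted p = 0.686). Each genotype was tested on its own, and a step called in one and not in the other is not thereby shown to differ.

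From E13.5 to E18.5 in Cdkn1b-null ovaries 3 of 9 members tested were called, against 30.2% of all genes. Bbc3 fell by 2.13 ± 0.547 (edgeR adjusted p = 0.0184), from 9.14, 6.78 and 3.24 CPM to 3.00, 0.785, 1.14 and 0.755 CPM, with no overlap, which held for 39.9% of all genes. Bax fell by 0.26 ± 0.0853 (adjusted p = 0.0443) and Trp63 rose by 1.91 ± 0.625 (adjusted p = 0.0449), from 0.859, 1.28 and 0.319 CPM to 1.08, 5.70, 2.84 and 2.78 CPM. With the replicate number as a block only Bbc3 was still called (-2.05, adjusted p = 0.00540), while Bax and Trp63 were not (adjusted p = 0.176 and 0.0967). No member was called without E18.5 replicate 2 or 3 or E13.5 replicate 1. The Trp63 call was also lost without E18.5 replicate 4 or E13.5 replicate 4, and the Bax call without either of these or E18.5 replicate 1.

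From PND8 to 12wk in Cdkn1b-null ovaries 8 of 10 members were called, against 29.1% of all genes. Bcl2l10 fell by 5.88 ± 0.781 on the log2 scale (edgeR adjusted p = 0.00322), from 7.28, 27.6 and 12.7 CPM to 0.477, 0.0802 and 0.243 CPM, the last values at or a little above the floor. Trp63 fell by 1.43 ± 0.245 (adjusted p = 0.00631), from 7.93, 9.77 and 6.07 CPM to 2.73, 3.00 and 2.56 CPM. Those 2 calls held without each library in turn. The other 6, Bcl2 (-0.48), Bcl2l1 (0.36), Bcl2l11 (0.53), Bax (0.25), Bbc3 (1.26) and Pmaip1 (1.79), had adjusted p of 0.0162 to 0.0499, and each was lost without replicate 3 at PND8. Other single libraries also ended these calls: any of the 6 for Bax, 12wk replicate 3 for Bcl2, Bcl2l1, Bcl2l11 and Bbc3, 12wk replicate 1 for Bcl2l11, 12wk replicate 4 for Bbc3 and Pmaip1, PND8 replicate 1 for Bcl2l1, Bcl2l11, Bbc3 and Pmaip1, and PND8 replicate 4 for Bcl2l1, Bbc3 and Pmaip1. Without a single library 2 to 6 members were called.

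Between genotypes, Bcl2 was the only member called, and only at E18.5. It stood at 28.0, 35.4, 39.0 and 46.5 CPM in wild-type replicates 1 to 4 and at 21.9, 23.1, 23.5 and 23.3 CPM in the Cdkn1b-null ones, which were all below the lowest wild-type library and close together. The difference was -0.71 ± 0.147 on the log2 scale (edgeR adjusted p = 0.0208). At E18.5 1 of 9 members tested was called, against 4.99% of 16322 genes. The call rested on most of the libraries: it was lost without wild-type replicate 3 or 4 or without any 1 of the 4 Cdkn1b-null replicates, with the difference at -0.59 to -0.72 and adjusted p up to 0.0766 in those fits. Over all 8 fits that left out a library the difference was -0.82 to -0.59.

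Bbc3 had the widest gap at E18.5, with 3.56, 3.02, 9.79 and 4.85 CPM in wild type and 3.00, 0.785, 1.14 and 0.755 CPM in Cdkn1b-null libraries. The groups did not overlap, though only barely: the highest Cdkn1b-null value, 3.00 CPM, lay just under the lowest wild-type value of 3.02 CPM. The difference of -1.90 ± 0.518 was not called (edgeR adjusted p = 0.0620). It was called with the replicate block (adjusted p = 0.0470), by DESeq2 (0.00282) and in a fit of all 29 libraries (0.00933). These were 3 of 5 alternative fits, in which the adjusted p was up to 0.11. Of 8 fits that left out a library 2 called it, and the difference was -2.57 to -1.41. Without wild-type replicate 3, which had 9.79 CPM, it was -1.41 (edgeR adjusted p = 0.14). Mcl1 was also lower in each Cdkn1b-null library at E18.5, at 34.9, 31.9, 38.3 and 37.3 CPM against 39.8, 53.3, 40.5 and 46.8 CPM, and was not called (-0.35 ± 0.123, adjusted p = 0.129). These 3 of 9 members whose groups did not overlap compare with 14.7% of all genes at E18.5. The other 6 tested at E18.5, Bcl2l1, Bax, Bak1, Bcl2l11, Pmaip1 and Trp63, had differences of -0.30 to -0.00 and adjusted p of 0.573 to 0.992.

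**Figure D5:**
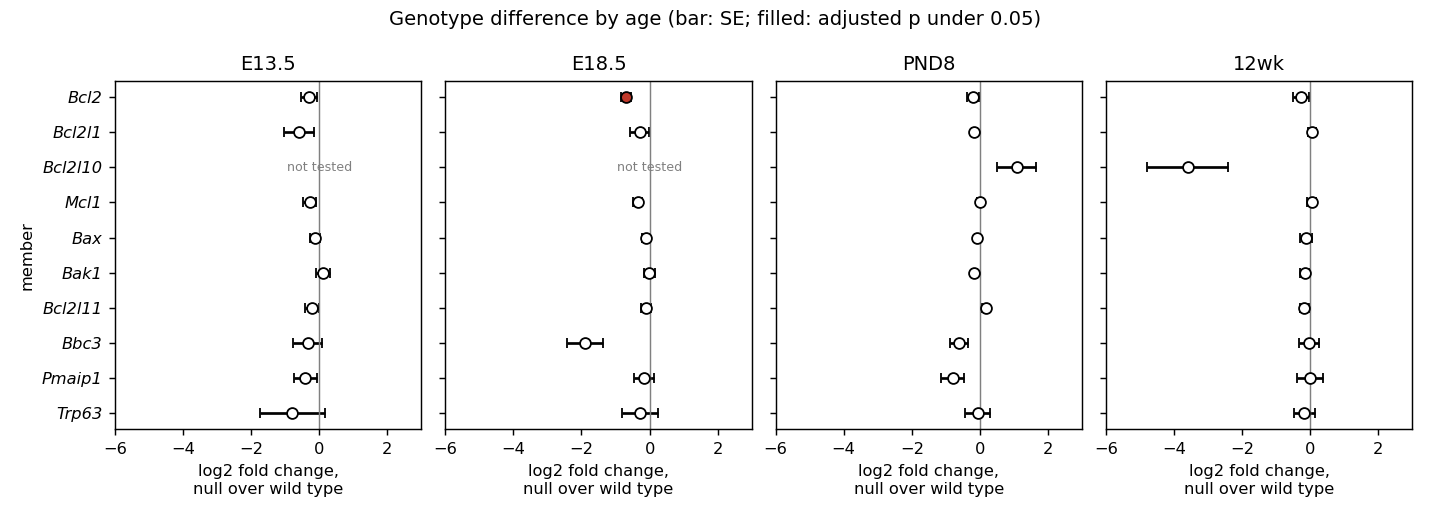
Log2 fold change of Cdkn1b-null over wild type for each member at each age, from edgeR, with its SE as a bar. A filled point has an adjusted p under 0.05 and an open one does not. The only filled point is Bcl2 at E18.5, at -0.71, and Bcl2l10 had too few counts to be tested at E13.5 and E18.5.

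Some cell markers differed between genotypes at E18.5 as well, where 4.99% of all genes were called, 3.32% higher and 1.67% lower. The median log2 difference of all genes was -0.04. Of the marker sums, only that of the theca and steroidogenic list did not overlap between genotypes. The 10 meiotic prophase markers summed to 750 to 1535 CPM in wild type and 506 to 1001 CPM in Cdkn1b-null libraries, with 9 of 9 tested lower and Rec8 called. The 16 oocyte markers summed to 252 to 610 and 202 to 430 CPM, with 10 of 13 tested lower, 0 called and Oosp1 at or under the floor. The 6 theca and steroidogenic markers summed to 156 to 268 CPM in wild type and 296 to 393 CPM in Cdkn1b-null libraries, and Hsd3b1 was called higher. The 10 granulosa lineage markers summed to 292 to 520 and 404 to 629 CPM, with Inha and Cyp19a1 called higher. The 6 stroma markers summed to 2452 to 4219 and 2032 to 3493 CPM, with Tcf21 called lower. The part of any of these cell types in the lower Bcl2 and Bbc3 levels was not tested.

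At the other ages no member was called between genotypes. At E13.5 edgeR called 0 of 9 members tested and 0 had an unadjusted p under 0.05, against 3.49% of all genes, DESeq2 called 0, and 0.00606% of all genes were called. No member's groups were apart, against 3.75% of all genes. Bcl2l1 stood at 161, 153 and 136 CPM in Cdkn1b-null libraries at E13.5, within the range of wild-type replicates 1, 2 and 4 (131 to 162 CPM). Without wild-type replicate 3 its difference at E13.5 went from -0.60 to 0.07, and that of Bbc3 from -0.33 to 0.004. At PND8 edgeR and DESeq2 each called 0 of 10, against 0.349% of all genes, while 4 had an unadjusted p under 0.05, as did 15% of all genes. Of these, Bcl2l1 (-0.17 ± 0.0700), Bbc3 (-0.63 ± 0.263) and Pmaip1 (-0.81 ± 0.337) had groups that did not overlap, and Bak1 (-0.16 ± 0.0719) did not have that. Non-overlap was found for 14.5% of all genes at PND8. Pmaip1 stood at 0.781, 0.704, 0.566 and 0.563 CPM in wild type and 0.416, 0.323 and 0.386 CPM in Cdkn1b-null libraries.

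At 12wk edgeR called 0 of 10 members, against 0.0115% of all genes, and Bcl2l10 was the 1 member with an unadjusted p under 0.05, which 9.63% of all genes had. It stood at 0.775, 0.545, 9.31 and 2.14 CPM in wild type and at 0.477, 0.0802 and 0.243 CPM in Cdkn1b-null libraries. The groups did not overlap, as was so for 8.72% of all genes. The difference was -3.60 ± 1.20 (edgeR adjusted p = 0.445), and -2.17 without wild-type replicate 3. DESeq2 called it (adjusted p = 0.0168). All 16 oocyte markers summed to 35.7 to 184 CPM in wild type and 89.0 to 110 CPM in Cdkn1b-null libraries, and without Kit to 10.8 to 141 and 6.24 to 10.2 CPM. Their part in the Bcl2l10 difference was not tested. At PND8 the Bcl2l10 difference had the other sign, 1.08 ± 0.585, and was not called (adjusted p = 0.443), with oocyte marker sums of 289 to 1058 CPM in wild type and 713 to 1668 CPM in Cdkn1b-null libraries.

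Whether genotype effects changed with age was tested as an interaction over all 29 libraries. No member was called (0 of 10, against 0.806% of 20359 genes), DESeq2's likelihood ratio test called 0, and 2 had an unadjusted p under 0.05, against 12.7% of all genes. These were Bbc3 and Bcl2l10, with edgeR adjusted p of 0.310 and 0.328. Bcl2l10 had 0 counts in every library at E13.5, so its genotype effect there could not be estimated. The SE of its change in genotype effect from E13.5 to E18.5 was 2780.5. For Bcl2 the adjusted p was 0.651, so its difference at E18.5 is not shown to exceed that at other ages.

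Ratios within a library need no scaling between libraries. The log2 ratio of the counts of Bax and Bcl2, with 0.5 added to each count and not corrected for gene length, often used as an index of the balance between death and survival, was 1.31 ± 0.413 (SD, n = 4) in wild type and 1.89 ± 0.0630 (n = 4) in Cdkn1b-null libraries at E18.5. Every Cdkn1b-null library was higher, and the two-sided exact permutation p was 0.0286, the smallest that 4 against 4 allows, or 0.343 after adjustment over 12 ratios and ages. In the same libraries the log2 difference was -0.12 for Bax and -0.71 for Bcl2, so this is not a result apart from the lower Bcl2. In wild type the same ratio went from 1.89 ± 0.168 at E13.5 to -0.09 ± 0.369 at PND8. Relative to Ddx4, the log2 level of Trp63 in wild type was -7.08 ± 1.86 and -3.79 ± 0.590 at the fetal ages and 0.66 ± 0.420 and 2.62 ± 0.620 at PND8 and 12wk. Ddx4 itself went from 113 ± 13.9 and 46.2 ± 9.88 CPM at the fetal ages to 5.71 ± 3.53 and 0.516 ± 0.230 CPM, so that from PND8 to 12wk the ratio was higher while Trp63 fell by 1.34. Relative to Ddx4, Bcl2l10 at 12wk was 1.81 ± 1.303 in wild type (n = 4) and -0.14 ± 0.362 in Cdkn1b-null libraries (n = 3), an exact permutation p of 0.0571, the smallest that 3 against 4 allows, and 0.343 after adjustment. At 12wk Ddx4 had only 9 to 25 counts in wild-type libraries and 4 to 9 in Cdkn1b-null ones, so the ratios to it at that age rest on few counts. None of the 12 tests passed after adjustment, nor could any at this number of libraries.

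Lists of the other genes of these pathways show what surrounded the members. Of 16 other Bcl2 family genes 11 were tested for genotype at E18.5; edgeR called 0, 4 had an unadjusted p under 0.05 (22.1% of all genes had one), and the median log2 difference was -0.02, against -0.28 for the members and -0.04 for all genes. In wild type from E18.5 to PND8 3 of 10 rose and 7 fell (median -0.60, against 0.37 for the members and 0.01 for all genes). The largest called wild-type change in the list was that of Bcl2a1b, an anti-death relative found in blood cells, from 0.161 ± 0.163 to 2.15 ± 0.398 CPM between PND8 and 12wk. It belongs to a family of near-identical copies, among which RSEM divides reads.

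Of 17 genes listed for the caspase pathway, caspases and other genes together, 3 were called for genotype at E18.5, all higher in Cdkn1b-null ovaries (median of the list 0.14). Of all genes 4.99% were called there, 3.32% higher and 1.67% lower. Among them were the protease Casp2 (82.2 ± 5.05 to 116 ± 9.57 CPM, adjusted p = 0.0184 in edgeR) and Birc5 (survivin), which also acts in cell division (62.7 ± 13.5 to 109 ± 18.9 CPM). Casp6 had the largest called wild-type change of the list, falling from 351.9 ± 58.6 to 74.7 ± 10.1 CPM between E18.5 and PND8.

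Of the p53 family and checkpoint list, 18 of 19 genes were tested at E18.5 and 3 were called higher in Cdkn1b-null ovaries, against 3.32% of all genes. They were Trp53, the gene of p53 (63.7 ± 6.53 to 87.0 ± 7.10 CPM), Chek1, a kinase that halts the cycle when DNA is damaged (a log2 difference of 0.72 ± 0.135), and Trip13, which works in meiotic recombination (32.1 ± 5.34 to 52.5 ± 5.10 CPM). Hormad1, a protein of the meiotic chromosome axis, had the largest called wild-type change, from 72.3 ± 12.2 to 0.0980 ± 0.0867 CPM between E18.5 and PND8. Of 14 target genes of the p53 family, Gtse1 was called higher at E18.5 (12.1 ± 0.758 to 24.1 ± 4.51 CPM), and Phlda3 (79.7 ± 4.04 to 60.5 ± 6.35 CPM) and Trp53inp1 (33.7 ± 3.80 to 23.9 ± 1.27 CPM) were called lower, beside 3.32% of all genes called higher and 1.67% lower. Cdkn1a, the gene of the cell-cycle inhibitor p21, had the largest called wild-type change of these targets, from 3.19 ± 0.707 to 29.2 ± 13.4 CPM between PND8 and 12wk. At E13.5, PND8 and 12wk edgeR called 0 genes of these 4 lists for genotype, and 0 to 5 of a list had an unadjusted p under 0.05, against 3.49%, 15% and 9.63% of all genes at these ages.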

How the data were processed

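Whole dissociated ovaries of 16 wild-type and 13 Cdkn1b-null samples were sequenced. The deposited values are estimated counts per gene that the authors made with RSEM 1.3.0, with STAR 2.5.2, Trim Galore and FastQC 0.11.5, per the submitters' processing notes. The genome build is not given in the sources used here. RSEM shares reads among similar genes, fractional values made up 31.4% of all nonzero entries, and counts were rounded before testing. The file header names a folder of combined projects and gives no map from samples to projects, so a batch of that kind was not tested. The library names in that header take another form for fetal libraries than for those after birth. A batch along that divide was not tested apart from age. The library kit and its strand setting are not given either. Library totals were 14095601 to 48213177 counts, and 3 counts, the floor used, were 0.0622 to 0.213 CPM. These limits cover counting error only.

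Genes were filtered with edgeR 4.0.16 (R 4.3.3) at a minimum count of 10 and a minimum total of 15 and scaled with TMM. The groups of each comparison were fitted alone by the quasi-likelihood test with Benjamini-Hochberg adjustment over all genes tested. The interaction used all 29 libraries. Gene symbols were paired with 51633 of 51912 IDs. The methods were tested on simulated data. Alternatives were size factors in place of TMM, no filter, the replicate number as a block, DESeq2 1.42.0, a single fit of all groups, and leaving out each library. Replicate numbers come from the sample titles. Deviations from the group means of same-numbered libraries correlated above 0.1 in every pair only for E13.5 to E18.5 in Cdkn1b-null ovaries (r = 0.105 to 0.208, 3 pairs), where the blocked values are given. Of 39 pairs of replicates none agreed within sampling noise (chi-square per degree of freedom at least 14.1 over genes with 20 or more counts). The 10 genes and all gene and marker lists were chosen with earlier results of these data known. Outside the 10, genes were named where they were called for genotype or had the largest wild-type age change of their list, apart from Cdkn1b and the marker genes. One gene that this rule would name is not reported here.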

Additional observations from a re-analysis of the deposited data

Results flagged for a closer look

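Dixon's test was run on 49 sets, each the levels of 1 member in the 4 libraries of 1 group. In 4 of these sets 1 library lay far from the other 3, which chance does in about 1 in 20 sets. The sets share libraries, so they are not independent. Bcl2l1 at 443 CPM and Bcl2 at 40.2 CPM were highest in the same wild-type E13.5 library, replicate 3, against 131 to 162 CPM and 24.9 to 27.2 CPM in the others. That library had the red cell sum of 137670 CPM. Mcl1 (42.9 CPM), Bax (132 CPM), Bbc3 (12.2 CPM) and Trp63 (3.39 CPM) were also highest there among wild-type E13.5 libraries, without being flagged. Bcl2l11, Bak1 and Pmaip1 were not highest there. The part of red cells in the levels of Bcl2l1, Bcl2 and these other members was not tested. Bcl2l1 stood at 77.7 CPM in wild-type replicate 1 at 12wk, against 61.0 to 63.4 CPM in the other 3. Bbc3 stood at 3.00 CPM in Cdkn1b-null replicate 1 at E18.5, against 0.755 to 1.14 CPM in the other 3, and without that library the genotype difference of Bbc3 was -2.57 and was called (edgeR adjusted p = 0.0168).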

How the results depend on the processing

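Over 154 fold changes of the members, 1749 of 1887 values under the alternatives stayed on their side of the threshold, 115 lost a call, 23 gained one and 0 calls changed direction. Of the 1749, 58 changed sign where neither value was called. For genotype at E18.5, 1 member was called, and 2 (Bcl2 and Bbc3) were called with the replicate block, with DESeq2 and with all groups in 1 fit. Leaving out each library gave 0 to 2. At 12wk DESeq2 called 1 member, Bcl2l10. From E13.5 to E18.5 in wild type, 0 were called, but 1 without the filter and 3 with all groups in 1 fit, and leaving out each library gave 0 to 1. From PND8 to 12wk in wild type, 4 were called, but 2 without the filter, 2 with the replicate block and 2 with all groups in 1 fit, and leaving out each library gave 1 to 5. In Cdkn1b-null ovaries from E13.5 to E18.5 the block left 1 of 3 called and leaving out each library 0 to 3. From PND8 to 12wk in Cdkn1b-null ovaries the block and the fit of all groups each left 2 of 8 and leaving out each library 2 to 6. The cause of these differences was not tested. In the other comparisons the block moved no count of members by over 1.5 times. Same-numbered libraries did not all correlate above 0.1 except from E13.5 to E18.5 in Cdkn1b-null ovaries.

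Over all genes, 814 were called for genotype at E18.5 (1676 by DESeq2) and 164 for the interaction (708 by DESeq2). At E13.5 the count was 1, against 71 by DESeq2 and 59 with all groups in 1 fit. At PND8 it was 62, against 258 without the filter, 8 with the block, 741 by DESeq2 and 0 with all groups in 1 fit. At 12wk it was 2, against 12, 10, 298 and 68 in the same order. Counts of the 4 pathway lists stayed within 1.5 times under the other scaling in 63 of 64 cases, the exception being the other Bcl2 family from E13.5 to E18.5 in wild type (2 called against 1). All 107 alternative values of the ratios stayed on their side of the threshold, in a design too small for any of the 12 adjusted tests to pass. Depth limits Bcl2l10 before birth, with 0 counts at E13.5, and Trp63, Pmaip1 and Bbc3, which had as few as 2, 11 and 15 counts in a library.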
